A study of Arabidopsis thaliana with 30 samples.

Results

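This account covers 10 defence-related genes of Arabidopsis, 10 of 22746 probe sets tested, each measured by 1 probe set that belongs to it alone. They were chosen by their spread: most of them varied strongly between arrays of one and the same group, so their spread between arrays is given as a description, with no test. BIK1 was the member with a narrow spread. The comparisons between group means, by contrast, were tested.

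Leaves were sampled from 2 genotypes in 5 conditions, with 3 arrays in each of the 10 groups and 30 arrays in all. The mutant, cat2, carries the cat2-1 allele of the gene for catalase 2, the main hydrogen peroxide removing enzyme of leaf peroxisomes, and Col-0 is its wild type. All plants, mutant and wild type, spent their first 5 weeks under 3000 ppm CO2 with 8 h light and 16 h dark (short days), a CO2 level that holds down photorespiration and with it the formation of peroxide in peroxisomes. The hCO2 groups were harvested there, the SD2 and SD4 groups after 2 or 4 days in air of 400 ppm CO2 in short days, and the LD2 and LD4 groups after 2 or 4 days in air in long days of 16 h light and 8 h dark. Harvest was 7 h into the light. Each array held RNA from a pool of 2 rosette leaves from different plants, so 1 array averages few plants. For Col-0 hCO2 the treatment label reads 300 ppm, whereas the growth protocol reads 3000 ppm, and the protocol was followed. The transcript of the mutated gene was not analysed here, so the genotype labels were taken as given.

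Plants meet microbes with pattern receptors at the cell surface and with receptors inside the cell. Both lead to a rise in cytosolic calcium, to kinase activity and to the transcription of genes for antimicrobial enzymes, small molecules and secretion. Salicylic acid and hydrogen peroxide reinforce this programme in leaves, and catalase mutants are used to study it. Among the 10 genes, BIK1 (AT2G39660, botrytis-induced kinase) codes for a cytoplasmic kinase that acts directly below pattern receptors. AT1G57630 codes for a protein with a TIR domain, the signalling domain of one class of intracellular immune receptors. AT5G39670 and AT3G47480 code for calmodulin-like calcium sensors with EF hands, and AT4G00700 for a membrane protein with C2 domains, which bind calcium and lipids. AT1G65690 belongs to the family of NDR1/HIN1-like membrane proteins, and AT1G13340 to a family that regulates Vps4 in multivesicular body sorting. On the output side stand AT3G13610 (F6'H1 in RefSeq), which hydroxylates feruloyl-CoA in the synthesis of the coumarin scopoletin, AT4G16260, a glycosyl hydrolase of the glucanase type, and AT5G38900, a thioredoxin-fold protein.

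Few markers of leaf cell types could be named. The mesophyll genes RCA (Rubisco activase) and PRK (phosphoribulokinase) averaged 14.09 and 12.94 on the log2 RMA scale, and the root genes EXPA7 and AT1G30870 averaged 4.94 and 4.46. Signals of different probe sets are not comparable as transcript levels, so each value describes its own probe set and the tissue label was taken as given. The genes were 2 of 16 listed mesophyll markers and 2 of 7 listed root markers, and none of the listed epidermis or floral markers had a probe set of its own in the annotation used. In whole leaves, a lower signal from fewer cells of a type and one from less RNA per cell cannot be told apart.

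Pools of one group differed several fold in 9 of the 10 genes. Pooled over the groups, the SD between arrays of a group ran from 0.80 for AT1G13340 to 1.18 for AT3G13610 on the log2 scale, against a median of 0.145 over all 22746 probe sets. All 9 lay above the 99th percentile of that SD, 0.564, and for AT3G13610 only 6 probe sets had a larger one. BIK1, at 0.172, stood at percentile 65.5. These values chose the genes and support nothing further.

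**Figure D1:**
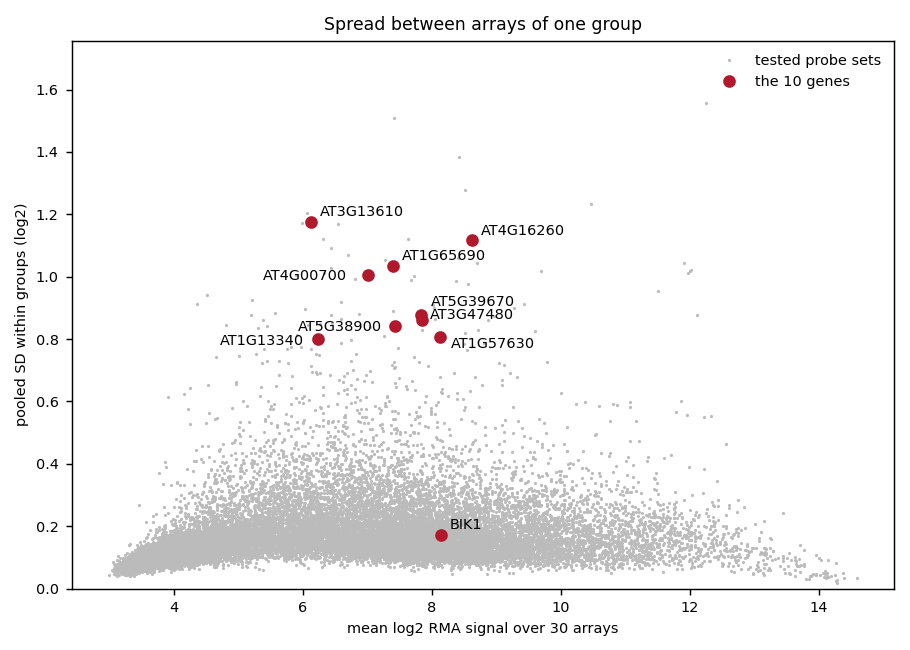
Mean log2 RMA signal of each probe set over 30 arrays (x axis) against the SD between arrays of a group, pooled over 10 groups (y axis, log2). Grey points are the 22746 tested probe sets and red points the 10 genes, of which 9 lie at 0.80 or above and BIK1 at 0.172.

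AT3G13610, the coumarin gene, showed the pattern plainly in short days. Its log2 signal was 4.88, 6.40 and 4.40 in replicates 1, 2 and 3 of cat2 SD4, against 5.82, 8.05 and 4.84 in Col-0 SD4. In both genotypes replicate 2 was high and replicate 3 low, and the arrays of the genotypes overlapped. Within Col-0 SD4 this is a 9.27-fold range among 3 leaf pools of the same treatment. In cat2 SD2 the pools lay closer, at 4.67, 4.81 and 5.30, a 1.55-fold range, while Col-0 SD2 held 5.77, 7.04 and 4.79.

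The calcium sensor AT3G47480 ranged likewise. It stood at 6.93, 8.49 and 5.46 in cat2 SD4, an 8.20-fold range, against 7.91, 8.62 and 6.72 in Col-0 SD4. Its fellow EF-hand gene AT5G39670 read 7.24, 8.23 and 5.37 on the same cat2 arrays and 7.75, 8.87 and 6.86 on the Col-0 arrays. Both sensors were thus highest in replicate 2 and lowest in replicate 3 of either genotype. AT1G65690, of the NDR1/HIN1-like family, was at 6.92, 7.61 and 4.70 in cat2 SD4, against 8.07, 8.60 and 6.17 in Col-0 SD4.

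The glucanase-type gene AT4G16260 had the widest range of all 10 genes, 10.9-fold in Col-0 hCO2. There AT3G13610 was highest in replicate 3 and lowest in replicate 2, and AT4G16260 shared the lowest array only. AT4G16260 was at 8.48, 8.12 and 9.44 in cat2 hCO2, against 11.21, 7.76 and 9.63 in Col-0 hCO2, so replicate 1 was the highest Col-0 pool there. In cat2 SD4 it was high in replicate 1 alone, with 8.64, 5.98 and 5.53. Its narrowest group was cat2 LD2, where 8.72, 8.89 and 8.65 span 1.18-fold.

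For BIK1 the widest range was 1.37-fold, in Col-0 SD2, and the narrowest 1.04-fold, in Col-0 LD4. Differences within groups made up 12.7% of the variance of BIK1 over the 30 arrays. For the other 9 genes that share lay between 38.1% (AT4G16260) and 62.2% (AT1G65690), around the median of 48.1% over all probe sets. The group means of these 9 genes thus spread as well. Means of so few arrays also spread when the arrays within a group differ widely. These shares alone therefore cannot tell differences between groups from the spread of the pools.

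**Figure D2:**
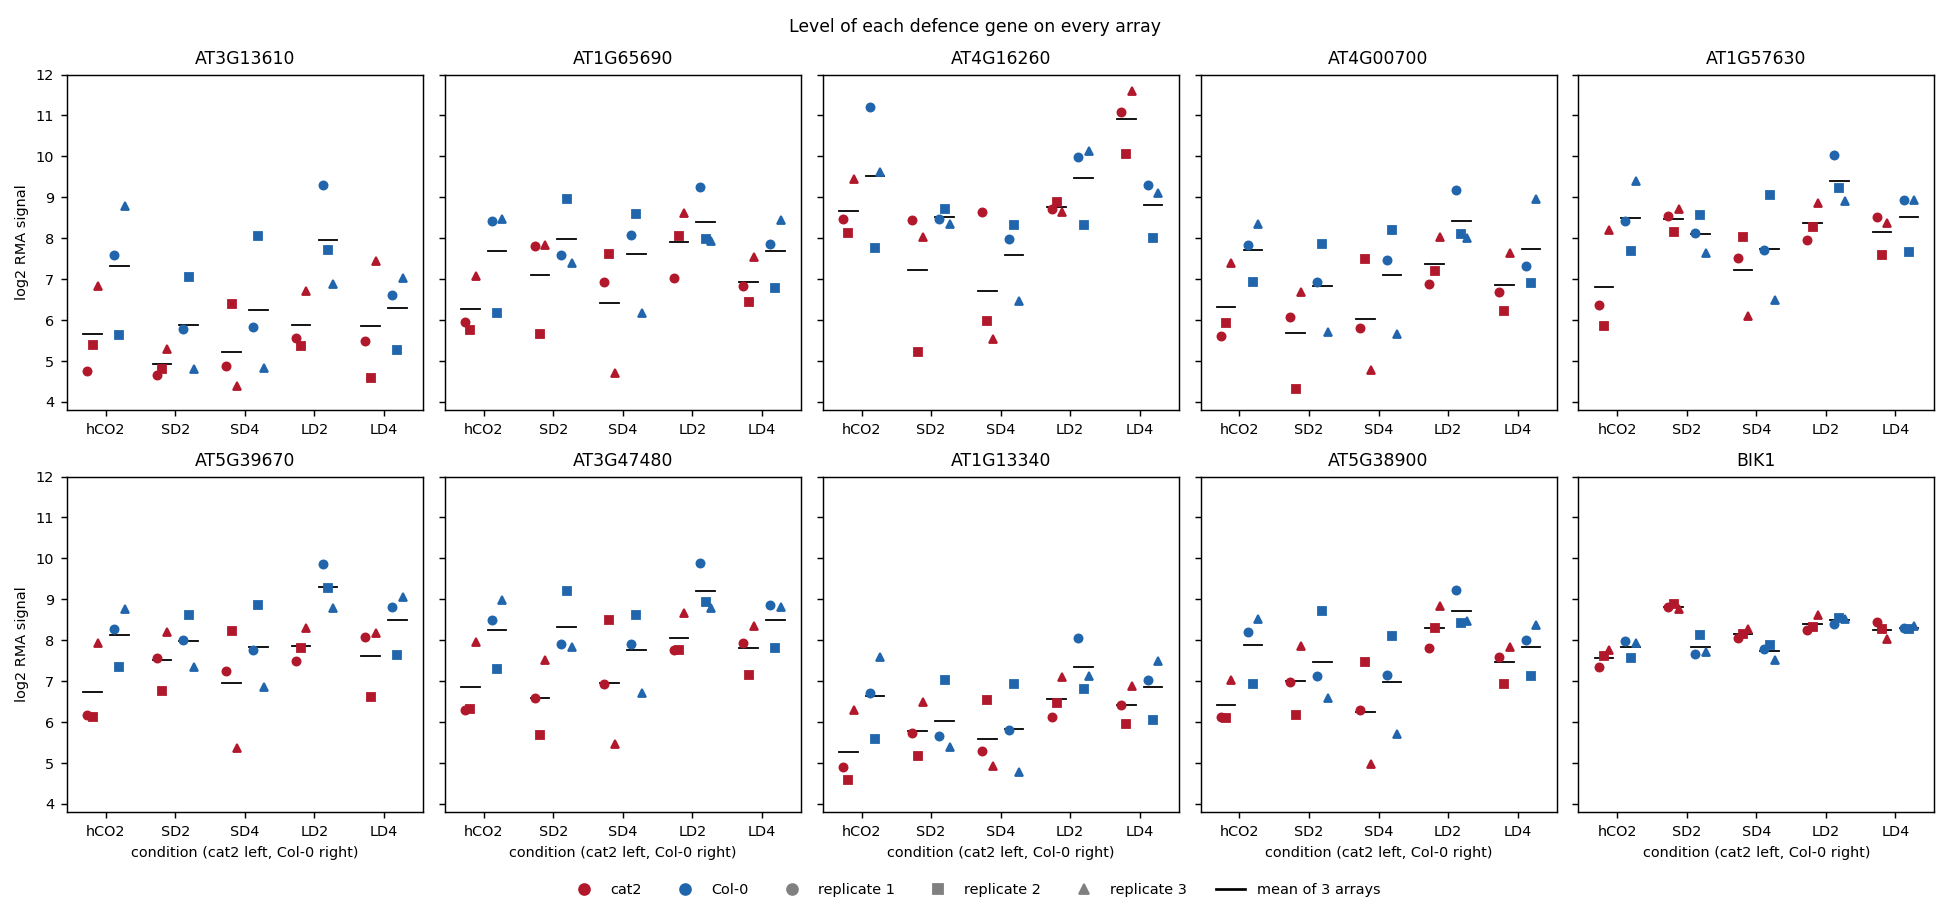
Log2 RMA signal (y axis) of the 10 genes on every array, by condition (x axis), with cat2 in red left of Col-0 in blue. Marker shapes give the replicate number and black bars the mean of 3 arrays. Pools of one group span up to 10.9-fold in AT4G16260 and at most 1.37-fold in BIK1.

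The high and low pools were largely the same for 8 of the genes, all but AT4G16260 and BIK1. In 8 of 10 groups all 8 genes were highest on the same array, in 6 groups all 8 were lowest on the same array, and in 4 groups both held. On 22 of 30 arrays all 8 genes lay on the same side of their group means. The mean level of the 8 genes differed between the extreme pools of a group by 2.09-fold in cat2 LD2 at the least and by 5.44-fold in cat2 SD4 at the most, with 5.29-fold in Col-0 SD4.

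Replicate 3 was the high pool in cat2 hCO2, Col-0 hCO2, cat2 SD2, cat2 LD2, cat2 LD4 and Col-0 LD4. Replicate 2 was the high pool in Col-0 SD2, cat2 SD4 and Col-0 SD4, and replicate 1 in Col-0 LD2. What a replicate number has in common across groups is not stated in the labels.

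Deviations from group means were correlated between genes over the 30 arrays, as a description, since genes on 1 array share the leaves, the RNA and the hybridisation. Pearson's r between pairs of the 8 genes lay between 0.79 and 0.96 over 28 pairs, with a median of 0.91 (Spearman's rho 0.81 to 0.97, median 0.92). Without the 2 arrays farthest from the median, replicate 3 of cat2 SD4 and replicate 3 of Col-0 SD4, the median r was 0.90. The glucanase-type gene AT4G16260 correlated with the 8 at r of 0.42 to 0.72 (rho 0.46 to 0.66, and r of 0.35 to 0.68 without those arrays), and BIK1 with the other 9 at 0.16 to 0.49 (rho 0.12 to 0.43, and r of 0.15 to 0.50). The gene closest to the mean of the other 9 was AT5G38900, with r of 0.96 and rho of 0.97.

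**Figure D3:**
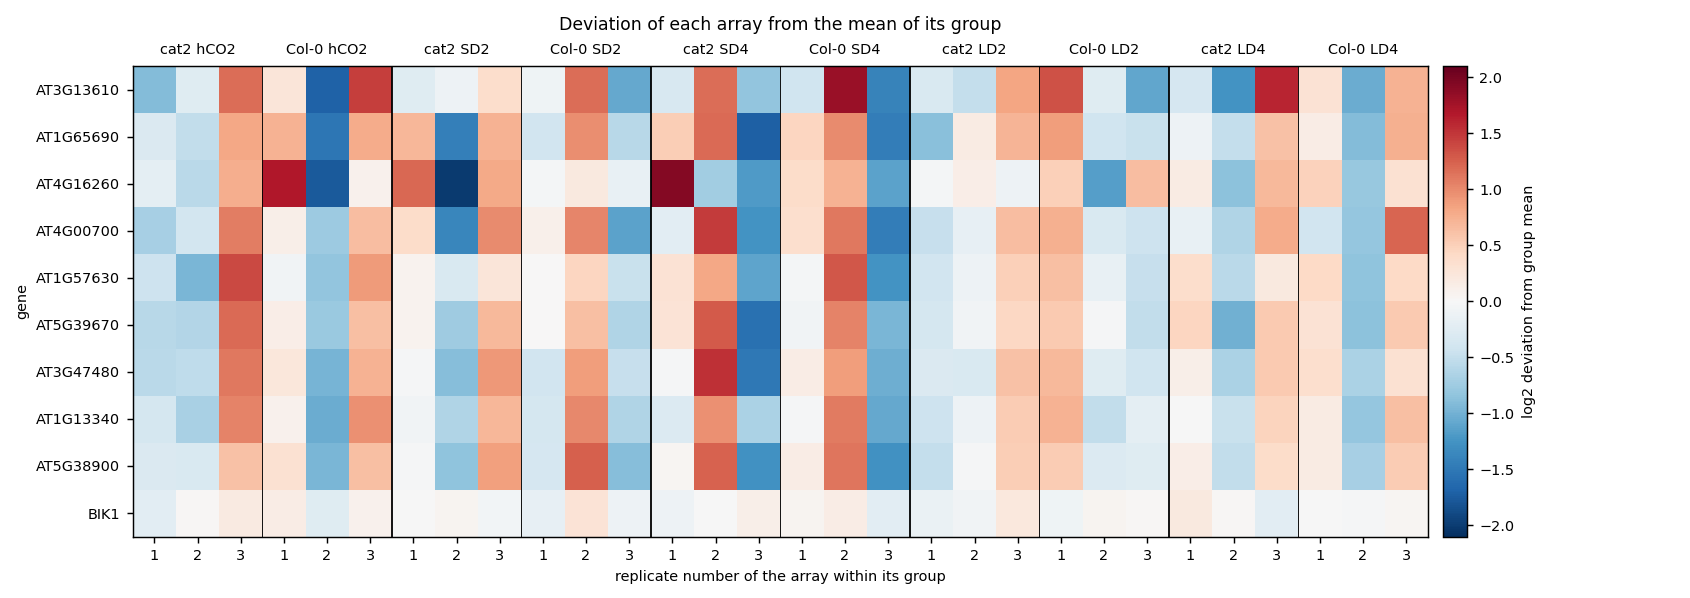
Deviation of each array from the mean of its group (colour, log2) for the 10 genes (rows) on the 30 arrays (columns, in their groups, cat2 left of Col-0). Columns are mostly of one colour over the 8 genes other than AT4G16260 and BIK1, and deepest in replicates 2 and 3 of the SD4 groups.

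Other probe sets followed the same pools. Of the 22736 tested probe sets outside the 10 genes, 378 (1.66%) had r of at least 0.8 with the mean deviation of the 10 genes over the 30 arrays, 79 had r of at least 0.9, and 16 had r of -0.8 or less. The 10 named genes most like it were AT5G08240 (r = 0.957), AT3G51330, AT1G78410, AT3G51440, AT5G52760, AT3G13950, AT2G18690, AT3G26440, ZCF37 and AT2G31990 (r = 0.928). Their pooled SD ran from 0.307 for AT2G31990 to 0.788 for AT2G18690. The 3 most opposite were AT5G50370 (r = -0.866), AT1G19450 (r = -0.836) and AT5G53500 (r = -0.832).

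Among listed immune genes, some followed the pools and some did not. WRKY53, a transcription factor of early immune signalling, had r of 0.88 with the mean deviation of the 10 genes (rho 0.89, and r of 0.85 without the 2 farthest arrays), and CHI, a putative chitinase, 0.86 (rho 0.91, and r of 0.85). The plant defensin PDF1.2 spread as widely between pools, with an SD of 1.01 against 1.23 for CHI, yet had r of 0.33 only (rho 0.26). EFR, a pattern receptor, had an SD of 0.176 and r of -0.27. Of the salicylic acid genes, SAG101, a partner of EDS1 in immune signalling, had r of 0.74, and UGT74F1, a salicylic acid glucosyltransferase, had 0.09.

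Calcium genes split as well. Of 9 measured genes in the list of calmodulin-like and calcium-binding proteins, AT3G01830 (r = 0.86), CML41 (0.74) and AT2G46600 (0.74) were the closest and CML23 (0.02) the farthest, with a median r of 0.67. The calcium binding of AT1G05575, also in this list, was not checked. The coumarin list, which leaves AT3G13610 itself out, had 4 measured genes with r between -0.42 (HCT, of phenylpropanoid synthesis) and 0.27 (AT1G55290, F6'H2 in RefSeq). The level of AT1G55290, the close relative of AT3G13610, stayed between 4.74 and 5.30 over all arrays.

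Leaf markers did not vary in this way. RCA had r of -0.23 and PRK -0.07 with the mean deviation of the 10 genes, while SWEET11, a sucrose exporter of the phloem, had 0.32, and FMA (FAMA), a guard cell regulator, -0.44. The 2 root markers had r of -0.22 and -0.21 at levels of 4.21 to 5.25.

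Array controls moved with the pools to differing degrees. The actin 3′ minus 5′ difference, a measure of RNA integrity, ran from 1.81 to 2.50 over the arrays and had r of 0.31, and the GAPDH difference had 0.17. The BioB 3′ spike-in probe set had r of -0.36 and the 25S ribosomal RNA control -0.25. Over all spike-in probe sets r ran from -0.42 (bioC 3′) to 0.34 (CreX 5′). The ubiquitin 3′ control, a plant transcript with an SD of 0.131, had r of 0.67. The GAPDH 3′ and 5′ controls taken singly had r of 0.60 and 0.62, so GAPDH moved with the pools although its 3′ minus 5′ difference did so little. The lowest r among the GAPDH and ubiquitin controls was 0.51. The actin 3′ and 5′ controls had 0.26 and -0.31. The part of RNA quality or hybridisation in the spread of the 10 genes was not tested.

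Within single conditions, BIK1 at SD2 was the one case among the 10 genes that was called between the genotypes in the fit of all arrays. At hCO2 all 10 genes were lower on average in cat2, with a median difference of -1.39 against 0.02 over all probe sets. The largest was AT1G57630, the TIR-domain gene, with a mean of 6.81 ± 1.23 in cat2 and 8.50 ± 0.86 in Col-0 (SD, n = 3 each). Its log2 difference was -1.70 ± 0.61 (SE, limma adjusted p = 0.565). The arrays of the genotypes overlapped in each of the 10 genes, where 3.74% of probe sets had every cat2 array below every Col-0 array. None of the 10 passed the test (adjusted p below 0.05), in a comparison where 3 of 22746 probe sets did (0.0132%). At an unadjusted p below 0.05 there were 5 of the 10 genes and 1531 probe sets, 6.73% of all. As 8 of the 10 genes shared their pools, their common direction and these counts are not made of separate observations. When noisy arrays were down-weighted, all 10 genes were called lower, where 33.8% of all probe sets were called and 15.5% were lower. The estimation of those weights stopped before it converged.

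At SD2 BIK1 rose in the mutant. Its signal was 8.81, 8.88 and 8.76 in cat2 SD2, against 7.67, 8.12 and 7.72 in Col-0 SD2. Every mutant pool lay above every wild-type pool, as for 14.9% of all probe sets. The difference was 0.98 ± 0.14, or 1.97-fold (limma adjusted p = 2.32e-05), where 14.2% of probe sets were called and 6.62% were higher. AT3G47480 went the other way, with 6.58, 5.69 and 7.51 in cat2 SD2, against 7.91, 9.20 and 7.84 in Col-0 SD2. Its mutant pools all lay below the wild-type pools, as for 20.5% of probe sets, but its difference of -1.72 ± 0.66 missed the threshold (adjusted p = 0.0840). The other 8 genes overlapped between the genotypes, with differences from -1.29 for AT4G16260 to 0.36 for AT1G57630.

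In the list of calmodulin-like and calcium-binding genes 4 of 9 measured genes outside the 10 were called higher in cat2 SD2 and none lower (percent called higher over all probe sets 6.62), with a median difference of 0.15 over the 9. They were CML37 (2.38), AT1G05575 (1.87), AT3G01830 (1.74) and CML38 (1.49, log2 differences). AT1G05575 was counted by its place in the list, and its calcium binding was not checked. AT5G39670 and AT3G47480, with log2 differences of -0.48 and -1.72, were not among the genes called.

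At SD4, LD2 and LD4 none of the 10 genes passed the test in the fit of all arrays (percent called 1.69, 1.15 and 0.725). Unadjusted p values were below 0.05 for 1, 2 and 1 of the genes and for 8.41%, 12.3% and 12.5% of all probe sets. At SD4 BIK1 was the one gene with every cat2 array above every Col-0 array (7.58% of all probe sets), with a difference of 0.43 ± 0.14 (adjusted p = 0.159). At LD2 all 10 were lower on average in cat2, and 4 had every cat2 array below every Col-0 array, a pattern that 10.3% of all probe sets showed. These were AT3G13610, AT1G57630, AT5G39670 and AT3G47480. All 4 are among the 8 genes that shared their pools, so their directions are not independent of each other. AT3G13610 stood at 5.56, 5.37 and 6.71 in cat2 LD2, against 9.31, 7.72 and 6.87 in Col-0 LD2, a difference of -2.09 ± 0.88 (adjusted p = 0.315). At LD4 AT4G16260 was the exception in direction, with 11.09, 10.06 and 11.61 in cat2, against 9.29, 8.00 and 9.12 in Col-0. The arrays separated, as in this direction for 5.47% of probe sets, but its difference of 2.12 ± 0.84 did not pass (adjusted p = 0.294).

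Same-numbered arrays of the genotypes deviated together at SD4 and LD4. Over all probe sets their correlations were 0.62, 0.31 and 0.63 at SD4, and 0.44, 0.45 and 0.22 at LD4, while in each other genotype comparison at least 1 was below 0. The labels name no shared material, and the same numbers of Col-0 LD4 and Col-0 SD4 had negative correlations of similar size (-0.51, -0.46 and -0.50), so the pairing rests on the data alone. A fit of the 6 arrays alone, with the replicate number as a block, was added later. The block removes spread between pools, the trait by which the genes were chosen, so its adjusted p values describe that model only. In that fit 5 of the 10 genes were called lower in cat2 SD4, where 1.65% of all probe sets were lower and 3.93% were called in either direction. They were AT1G65690 (-1.20 ± 0.10, adjusted p = 0.00150), AT5G38900 (-0.74 ± 0.08, adjusted p = 0.00385), AT4G00700 (-1.09 ± 0.17, adjusted p = 0.0177), AT3G13610 (-1.01 ± 0.20, adjusted p = 0.0465) and AT5G39670 (-0.88 ± 0.18, adjusted p = 0.0487). All 5 are among the 8 genes that shared their pools, so these calls are not independent of each other.

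For AT1G65690 the differences within pairs at SD4 were -1.15, -0.996 and -1.47, while its cat2 pools spanned 2.91 on the same log2 scale. At LD4 the same block called AT4G16260 higher in cat2 (2.12 ± 0.14, adjusted p = 0.00545), with pair differences of 1.80, 2.06 and 2.49. It also called AT5G39670 lower (-0.87 ± 0.11, adjusted p = 0.0212), where 1.05% of probe sets were called in either direction. These adjusted p values have the same limit as those of the block at SD4.

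Averaged over the 5 conditions, a comparison added after the values had been seen, 9 of the 10 genes were lower in cat2. The median difference was -0.82, against 0.00031 over all probe sets, of which 49.8% were negative. As 8 of the 10 genes shared their pools, their directions are not independent of each other. The test called 4 of the 10 genes lower and BIK1 higher, where 5.84% of probe sets were lower and 4.11% higher. The 4 were AT3G13610 (-1.24 ± 0.40, adjusted p = 0.0479), AT3G47480 (-1.15 ± 0.29, adjusted p = 0.0130), AT4G00700 (-1.11 ± 0.34, adjusted p = 0.0369) and AT5G39670 (-1.01 ± 0.29, adjusted p = 0.0260). BIK1 differed by 0.20 ± 0.06 (adjusted p = 0.0357), an average of the gain at SD2 with differences between -0.25 and 0.43 elsewhere. The replicate block ended the call of AT3G13610 (adjusted p = 0.0583), and centring or weighting the arrays ended that of BIK1 (adjusted p = 0.0634 and 0.0913).

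Of the listed genes named above for following the pools, some were called lower in the mutant too. CHI differed by -1.65 ± 0.41 (adjusted p = 0.0110), WRKY53 by -0.88 ± 0.22 (adjusted p = 0.00910) and SAG101 by -0.40 ± 0.12 (adjusted p = 0.0381). Each was the one gene called in its list, of 3, 2 and 2 measured. The calcium-binding gene AT2G46600 differed by -0.41 ± 0.12 (adjusted p = 0.0312), and in its list of 9 measured genes CML38 was called higher. In the secretory list 3 of 4 genes were called lower and none higher. Over all probe sets 5.84% were called lower and 4.11% higher in this averaged comparison.

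Single arrays decided much of that count of 5 called genes. It was 1 without replicate 2 of cat2 hCO2, cat2 SD2 or cat2 LD4, where AT3G47480 was the gene left, and 2 without cat2 hCO2 replicate 1, Col-0 hCO2 replicate 3, Col-0 SD2 replicate 1, cat2 SD4 replicate 3, Col-0 SD4 replicate 2 or Col-0 LD2 replicate 1. It was 3 without Col-0 hCO2 replicate 1, Col-0 SD2 replicate 2, cat2 SD4 replicate 1, Col-0 SD4 replicate 1, cat2 LD2 replicate 1, cat2 LD2 replicate 2, cat2 LD4 replicate 1 or Col-0 LD4 replicate 3, and 4 to 6 without any other array. AT3G47480 was called in all 30 of these fits, with adjusted p between 0.00266 and 0.0282. Over all 22746 probe sets these fits called between 1750 and 3109.

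**Figure D4:**
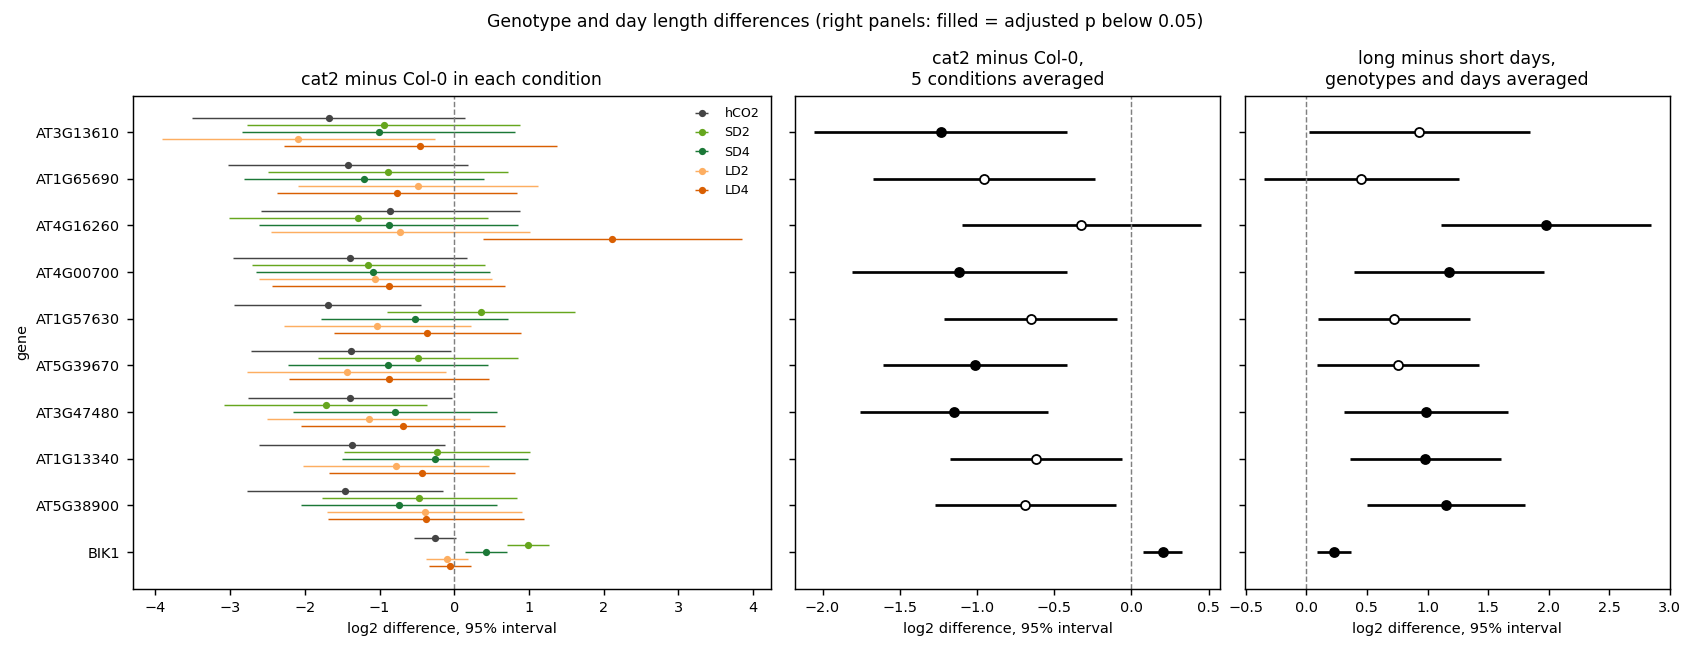
Log2 differences with 95% intervals for each gene (rows): cat2 minus Col-0 in each condition (left), averaged over 5 conditions (middle) and long minus short days averaged over genotypes and days (right). Filled points in the middle and right panels passed an adjusted p below 0.05. All genes but BIK1 lie below 0 in the middle panel, and all 10 lie above 0 in the right panel.

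Long days went with higher levels on average. Averaged over genotypes and days, also a comparison added later, all 10 genes were higher in long than in short days, with a median difference of 0.96 against 0.02 over all probe sets. Their directions are not independent here either, since 8 of them shared their pools. The test called 6 of the 10 higher and none lower, where 29% of probe sets were called and 15.7% were higher. AT4G16260 led with 1.98 ± 0.42 (adjusted p = 0.000743). AT4G00700 (1.18), AT5G38900 (1.15), AT3G47480 (0.99), AT1G13340 (0.98) and BIK1 (0.23) followed. The 4 genes that were not called, AT1G65690, AT1G57630, AT5G39670 and AT3G13610, had differences of 0.45 to 0.93. At day 2 in cat2, 8 of the 10 genes were higher in long days and 2 were lower. These 2 were BIK1, by 0.42, and AT1G57630, with means of 8.36 in LD2 and 8.47 in SD2. The average for BIK1 thus joins a fall with rises.

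CHI (1.68 ± 0.46), PDF1.2 (1.203 ± 0.38) and LCR67, a defensin gene with low signal (0.19 ± 0.07), 3 of 3 measured genes in the list of pathogenesis-related proteins, were called higher in long days as well. Over all probe sets 15.7% were called higher in this comparison. WRKY53 and SAG101 were not called. Leaving out single arrays gave 5 to 9 of the 10 genes called in the averaged day length comparison. The same fits called 6134 to 6793 of all 22746 probe sets. The count of genes was 9 without Col-0 SD4 replicate 2, and 5 without cat2 SD2 replicate 2, cat2 SD4 replicate 3, Col-0 SD4 replicate 3 or Col-0 LD2 replicate 1. With a block for the replicate number within genotype and day it was 4, and the share over all probe sets is not given here.

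At day 2, 4 of the 10 genes had every long-day array above every short-day array in cat2 (20.9% of all probe sets) and 4 in Col-0 (16% of all probe sets). In cat2 these were AT3G13610, AT4G16260, AT4G00700 and AT3G47480, with differences of 0.95 to 1.68, none of them called (adjusted p from 0.142 to 0.544). In Col-0 they were AT4G00700, AT1G57630, AT5G39670 and BIK1, of which BIK1 alone was called.

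The glucanase-type gene AT4G16260 carried the largest of these day length differences. After 4 days in air AT4G16260 was at 11.09, 10.06 and 11.61 in cat2 LD4, against 8.64, 5.98 and 5.53 in cat2 SD4. All 3 long-day pools lay above all 3 short-day pools, as for 14.3% of probe sets. The difference was 4.20 ± 0.84, or 18.4-fold (adjusted p = 0.00112), in a comparison where 5.51% of probe sets were called higher. In Col-0 the same gene was at 9.29, 8.00 and 9.12 in LD4, against 7.99, 8.32 and 6.47 in SD4, a difference of 1.21 ± 0.84 with overlapping arrays (adjusted p = 0.417). The difference between these effects, 2.99 ± 1.19, did not pass the test (adjusted p = 0.396, percent called 0.862).

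BIK1 responded to day length differently in the genotypes at day 2. In Col-0 it was at 8.41, 8.55 and 8.52 in LD2, against 7.67, 8.12 and 7.72 in SD2, a rise of 0.66 ± 0.14 (adjusted p = 0.00185, percent called higher 6.1). In cat2 it was at 8.26, 8.32 and 8.61 in LD2, against 8.81, 8.88 and 8.76 in SD2, a fall of 0.42 ± 0.14 with no overlap (15.3% of probe sets separated in this direction). The adjusted p of that fall was 0.0363, in a comparison where 7.36% of probe sets were called lower, and 0.0598 once arrays were centred on their medians. It was no longer called without any one of the 5 arrays of these groups other than cat2 LD2 replicate 3 (highest adjusted p 0.138). The interaction, -1.08 ± 0.19, passed the test (adjusted p = 0.000980), as 7.72% of probe sets did. At day 4 BIK1 was higher in Col-0 LD4 than in Col-0 SD4 by 0.58 ± 0.14 (adjusted p = 0.00527, percent called higher 7.11), and in cat2 the difference was 0.09 ± 0.14.

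In the mutant BIK1 was also higher in air than in high CO2. It was at 8.81, 8.88 and 8.76 in cat2 SD2 and at 8.05, 8.16 and 8.28 in cat2 SD4, against 7.35, 7.61 and 7.77 in cat2 hCO2. Both air groups lay wholly above the high CO2 group, as 12.2% of probe sets did at day 2 and 12% at day 4, with differences of 1.24 ± 0.14 at day 2 (adjusted p = 4.39e-07, percent called higher 7.57) and 0.59 ± 0.14 at day 4 (adjusted p = 0.00589, percent called higher 6.07). The call at day 4 was lost without cat2 hCO2 replicate 1 (adjusted p = 0.0511). In Col-0 the differences were 0.01 ± 0.14 and -0.09 ± 0.14. The interaction of genotype and air was 1.23 ± 0.19 at SD2 (adjusted p = 0.000220, percent called 6.01) and 0.68 ± 0.19 at SD4 (adjusted p = 0.134, percent called 0.892). These comparisons share the hCO2 arrays, and those of genotype and day length share the SD2 arrays.

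None of the other 9 genes was called between air in short days and high CO2 in either genotype, where 17.7% and 12.4% of probe sets were called in cat2 and 20% and 2.55% in Col-0. At unadjusted p below 0.05 there were 2, 2, 0 and 1 of the 10 genes, BIK1 counted among them in cat2, where 28.7% and 25.4% of all probe sets had such a p in cat2 at SD2 and SD4, and 32.0% and 14.6% in Col-0. AT4G16260 was lower on average in all 4 of these comparisons, by 1.45 in cat2 and 1.02 in Col-0 at SD2, and by 1.96 and 1.94 at SD4, with adjusted p between 0.138 and 0.441.

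Ranked by group means, Col-0 LD2 was the highest group for all 8 genes that shared their pools, and the lowest group was always one of the mutant, cat2 hCO2 for 4 genes, cat2 SD2 for 3 and cat2 SD4 for 1. Steps between neighbours in these orders were small against the spread of the pools. AT4G16260 was highest in cat2 LD4, at 10.92 ± 0.79, and lowest in cat2 SD4, at 6.72 ± 1.68. BIK1 was highest in cat2 SD2, at 8.82 ± 0.06, followed by Col-0 LD2 (8.49 ± 0.07), cat2 LD2, Col-0 LD4, cat2 LD4, cat2 SD4, Col-0 SD2, Col-0 hCO2, Col-0 SD4 and cat2 hCO2 (7.58 ± 0.21). For BIK1 the arrays of neighbouring groups separated at the first of these steps and overlapped at the other 8.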

How the data were processed

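Rosette leaf RNA of 30 samples was hybridised to 30 Affymetrix ATH1 arrays, 1 per sample. The deposited values are log2 signals per probe set. Per the submitters' processing notes, the authors made them with affy and RMA. RMA versions, and the slide or scan of each array, are not given in the sources used here. Values were used as deposited. Of 22810 probe sets, 64 controls were set aside and 22746 tested. Genes were named from a probe set annotation in which 13513 of these had exactly 1 gene, 503 several and 8730 none listed, and loci and synonyms came from RefSeq (TAIR10.1). The number of arrays limits the precision, and detection calls were not used here.

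A mean per group was fitted to all 30 arrays in limma 3.58.1 (R 4.3.3) with moderated tests (20 residual degrees of freedom) for 17 comparisons, and 2 averaged ones were added after values had been seen. Benjamini-Hochberg adjustment ran over all 22746 probe sets, and calls had an adjusted p below 0.05. The fit was tested on simulated data. An interaction is the difference of 2 differences. Deviations from group means, pooled SDs and correlations were computed in Python 3.11.15 with pandas 2.3.3 and scipy 1.17.1.

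The members and the gene lists were chosen with earlier results of these data known. Of 217 loci in 16 lists, 32 had a probe set of their own. The lists of camalexin, jasmonate and senescence genes had 0 measured. Besides the 10 members, the text names the 10 single-gene probe sets with a mean log2 of at least 5 whose deviations were most like the members' mean, the 3 most opposite, and, from each list, at most 4 called genes per comparison or 3 by spread. EFR, UGT74F1, CML23, AT1G55290, HCT and marker genes at lower spread were named after their values were seen.

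Alternatives tried were the replicate number as a block, fitting the compared groups alone, leaving out dim probe sets (mean log2 below 5), centring on array medians, another quantile normalization, array weights, trended and robust eBayes, and leaving out single arrays. The replicate block within only the groups compared was added later. Same-numbered arrays of the genotypes correlated above 0.1 in every pair only at SD4 and LD4.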

Additional observations from a re-analysis of the deposited data

Results flagged for a closer look

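Both results that stood out concern BIK1, the receptor-proximal kinase gene. The effect of moving from high CO2 to air for 2 days in short days differed between the genotypes by 1.23 on the log2 scale (SE 0.19, limma adjusted p = 0.000220), with a rise of 1.24 in cat2 and a difference of 0.01 in Col-0. Leaving out single arrays kept the adjusted p between 6.38e-05 and 0.00136. The effect of long against short days at day 2 differed by -1.08 (SE 0.19, limma adjusted p = 0.000980), with a fall of 0.42 in cat2 and a rise of 0.66 in Col-0. Leaving out single arrays kept it between 0.000359 and 0.00441. Both differences use the SD2 arrays of both genotypes, so they are not independent of each other.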

How the results depend on the processing

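With the replicate block in the fit of all arrays, no count of called members moved by over 1.5 times, though AT3G13610 lost its call in the averaged genotype comparison (adjusted p = 0.0583). The block was also put in a fit of only the groups compared. Between the genotypes it then called 3 at hCO2, 5 at SD4 and 2 at LD4, against 0, 0 and 0. Over all probe sets 0.686%, 3.93% and 1.05% were called there. In that fit LD2 against SD2 had 6 called in cat2 and 3 in Col-0, against 1 and 1. LD4 against SD4 in Col-0 had 0, against 1. The shares for these day length fits are not given here, so their counts cannot be judged. Same-numbered arrays did not all deviate together except in the genotype comparisons at SD4 and LD4. A fit of only the groups compared, with no block, called 3 for LD2 against SD2 in Col-0, and its share is not given here either. Array weights called 10 at hCO2 and 1 at SD4 between the genotypes, where 33.8% and 5.67% of all probe sets were called. They called 4 and 2 for SD2 and SD4 against hCO2 in cat2 (44.6% and 42% of all probe sets). In Col-0 they called 1 and 1 (30.8% and 9.65%). The interactions with air at SD2 and SD4 had 3 and 1 called (27.6% and 7.35%). The averaged genotype comparison had 8 called (22.6%). The estimation of the weights stopped before it converged. The filter of dim probe sets called 2 for SD2 against hCO2 in cat2, centring on medians called 0 for LD2 against SD2 in cat2, and trend and robust options called 3 in the averaged genotype comparison. The shares over all probe sets under these settings are not given here, so these counts cannot be judged. BIK1 lost its call in the averaged genotype comparison when arrays were centred (adjusted p = 0.0634) or weighted (0.0913). Leaving out single arrays gave 1 to 2 called for cat2 against Col-0 at SD2, 1 to 2 for SD2 and 0 to 2 for SD4 against hCO2 in cat2, 0 to 1 for LD2 against SD2 in cat2, 1 to 2 and 0 to 1 for the interactions with air at SD2 and SD4, and 1 to 6 in the averaged genotype comparison. Between the genotypes at SD2, these fits called 1707 to 2864 of all 22746 probe sets. For SD2 and SD4 against hCO2 in cat2 they called 2363 to 4970 and 1467 to 3669. For LD2 against SD2 in cat2 they called 2281 to 3429. The interactions with air had 834 to 2119 and 147 to 270 called, and the averaged genotype comparison 1750 to 3109. The count of called members was 2 without cat2 SD2 replicate 3 at SD2, without cat2 hCO2 replicate 3 for SD2 and without cat2 SD4 replicate 1 for SD4 against hCO2 in cat2. The interaction counts were 2 without cat2 hCO2 replicate 3 at SD2 and 1 without Col-0 hCO2 replicate 2 at SD4. No alternative listed turned a direction. Blocks within genotype and day called 4 in the averaged day length comparison, a fit whose share over all probe sets is not given here. The causes were not tested.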

Other observations

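Both measured genes of the touch and wound list were higher in the mutant at SD2. STZ, a zinc finger repressor of stress responses, was higher in cat2 SD2 than in Col-0 SD2 by 1.43 ± 0.33 on the log2 scale (SE, limma adjusted p = 0.00497), and AT3G55840 by 0.70 ± 0.12 (adjusted p = 0.000304). They were the 2 measured genes of 13 listed, where 6.62% of all probe sets were called higher. STZ was higher in cat2 SD2 than in cat2 hCO2 by 2.95 ± 0.33 (adjusted p = 5.91e-07), and lower in cat2 LD2 than in cat2 SD2, with a difference of -2.52 ± 0.33 (adjusted p = 7.26e-06). Its deviations from group means had r of 0.64 with the mean deviation of the 10 genes over 30 arrays (rho 0.65). In the list of secretory pathway and protein folding genes, 3 of 4 measured genes were called lower and 1 higher at SD2 against hCO2 in cat2, and 1 lower in Col-0. In cat2 CRT1B, SEC61A2 and SEC61A were the lower ones, and AT4G34150 was the higher one (1.16). The place of AT4G34150 in this list was not checked. Over all probe sets 10.1% were called lower and 7.57% higher in cat2, and 10.5% lower in Col-0. CRT1B, which codes for a calreticulin of the endoplasmic reticulum, differed by -0.97 ± 0.22 between SD2 and hCO2 in cat2 (adjusted p = 0.00262) and by -0.88 ± 0.22 in Col-0 (adjusted p = 0.00604), with r of 0.67 (rho 0.68) with the 10 genes.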
